A study of Mus musculus with 2 samples.

Results

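The 7 genes described here encode the inhibitory receptors TIM-3 (Havcr2), LAG-3 (Lag3), CD160 (Cd160) and 2B4 (Cd244a), the TIM-3 ligand galectin-9 (Lgals9), and the ectonucleotidases CD39 (Entpd1) and CD73 (Nt5e). They were chosen by name, 7 of the 24510 genes in the table, and were read in classes of cells that were gated on raw molecule counts of other genes. The cells came from subcutaneous B16F10 tumours, a mouse melanoma line, grown in female C57BL/6 mice. There were 3 groups of 3 mice, whose tumour cells were wildtype, Tyr knockout or Oca2 knockout, and CD45+ cells, the leukocytes, were sorted from the tumours. The cells of each group carried 1 sample tag, were pooled, and were captured together on the BD Rhapsody system, a microwell platform for single-cell whole transcriptome libraries, so that 1 transcriptome library and 1 sample tag library hold all groups. The labels do not say which tag carried which genotype, so tags 8, 9 and 10 stand for the 3 groups unnamed, no genotype comparison was made, and the mice of a group cannot be told apart.

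T cells that meet antigen for a long time acquire inhibitory receptors, and TIM-3 and LAG-3 are used to describe such exhausted T cells in tumours. LAG-3 binds MHC class II and other ligands, TIM-3 binds galectin-9 among others, CD160 binds HVEM, and 2B4 binds CD48 and can activate or inhibit depending on its adaptor proteins. Dendritic cells, macrophages and natural killer (NK) cells use several of these receptors too. CD39 converts extracellular ATP to AMP, and CD73 converts AMP to adenosine, which dampens immune cells through adenosine receptors.

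On GRCm38 with GENCODE vM21, all 7 genes are protein-coding. Havcr2 lies on chromosome 11 from 46454935 to 46481255 (plus strand), and Lgals9 on the same chromosome from 78962974 to 78984946 (minus strand). Lag3 lies on chromosome 6 from 124904361 to 124911705 (minus), Cd160 on chromosome 3 from 96798763 to 96829351 (minus), and Cd244a on chromosome 1 from 171559193 to 171609746 (plus). Entpd1 lies on chromosome 19 from 40612366 to 40741602 (plus) and Nt5e on chromosome 9 from 88327197 to 88372092 (plus). Exons of Cd160 overlap exons of Pdzk1 on the opposite strand, and whether the counting used strand is not given in the sources used here, so molecules of that stretch are uncertain.

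RefSeq promoters (GRCm38.p6) were matched for 6 of the 7 genes, in 8 windows of the 250 bases before a transcription start. The windows were searched on both strands for the AP-1 motif TGANTCA, to which factors of T cell activation bind, and for an interferon-response type motif, GAAA followed by any 2 bases and GAAA again. The 3 windows with a match are shown, 1 for each of the 3 members that hold a motif. They are written 5′ to 3′ on the gene's strand with the match in capitals, namely Havcr2 on chromosome 11 from 46454681 to 46454930 (plus), Cd244a on chromosome 1 from 171558943 to 171559192 (plus) and Lgals9 on chromosome 11 from 78984925 to 78985174 (minus).
Havcr2: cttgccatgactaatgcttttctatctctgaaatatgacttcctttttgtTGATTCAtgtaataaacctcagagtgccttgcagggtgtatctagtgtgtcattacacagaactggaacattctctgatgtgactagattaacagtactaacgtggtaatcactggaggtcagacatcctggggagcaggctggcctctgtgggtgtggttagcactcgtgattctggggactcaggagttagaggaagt
Cd244a: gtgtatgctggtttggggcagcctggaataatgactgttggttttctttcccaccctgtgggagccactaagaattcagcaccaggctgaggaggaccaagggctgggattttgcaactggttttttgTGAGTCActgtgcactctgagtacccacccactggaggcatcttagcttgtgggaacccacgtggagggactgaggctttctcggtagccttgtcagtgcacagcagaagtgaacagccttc
Lgals9: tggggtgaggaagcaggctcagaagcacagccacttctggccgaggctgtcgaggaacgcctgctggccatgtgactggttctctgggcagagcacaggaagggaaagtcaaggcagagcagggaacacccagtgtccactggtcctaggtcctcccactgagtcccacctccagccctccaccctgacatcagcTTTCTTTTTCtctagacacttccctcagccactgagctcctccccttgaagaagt
The first base of the AP-1 match stood 200 bases before the start in Havcr2 and 122 before it in Cd244a. The interferon-type match stood 55 bases before the start in Lgals9, on the opposite strand. Of 32851 promoter windows of this length, 6.75% held the AP-1 letters and 2.98% the interferon-type letters. A match describes letters only and is no evidence of binding.

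A cell was kept if it carried 1 tag, showed 200 genes or more, and had no more than 25% of its molecules from mitochondrial genes, which left 10491 cells with 63743912 molecules. Kept cells per tag were 3336, 3486 and 3669, with a median of 3224.5 to 3670.0 molecules per cell. By the gates of the design, with 63 NK cells, 5164 of them fell into 1 class, 34 met the gates of more than 1 class and 5293 met none. The wider NK gate used below held 364 cells, part of them from those that met none. With that NK gate, classes ranged from 75 plasmacytoid dendritic cells (pDC) to 1265 C1q macrophages. Median depth ranged from 2252 molecules per cell in B cells to 54434 in 107 cells with melanoma transcripts, which a CD45 sort should not hold. Of 14 marker lists that were not used for gating, 11 were highest in their own class. The CD8 T list (Gzmk and Ccl5) was highest in CCR7 dendritic cells (DC), at a median of 4584 CPM against 2707 CPM in CD8 T cells. The list of type 1 conventional DC (cDC1) was highest in pDC (2058 against 1905 CPM), as was the monocyte list (3611 against 3600 CPM). Classes are named by their gates below, and all 14899 cell indices were distinct.

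**Figure D1:**
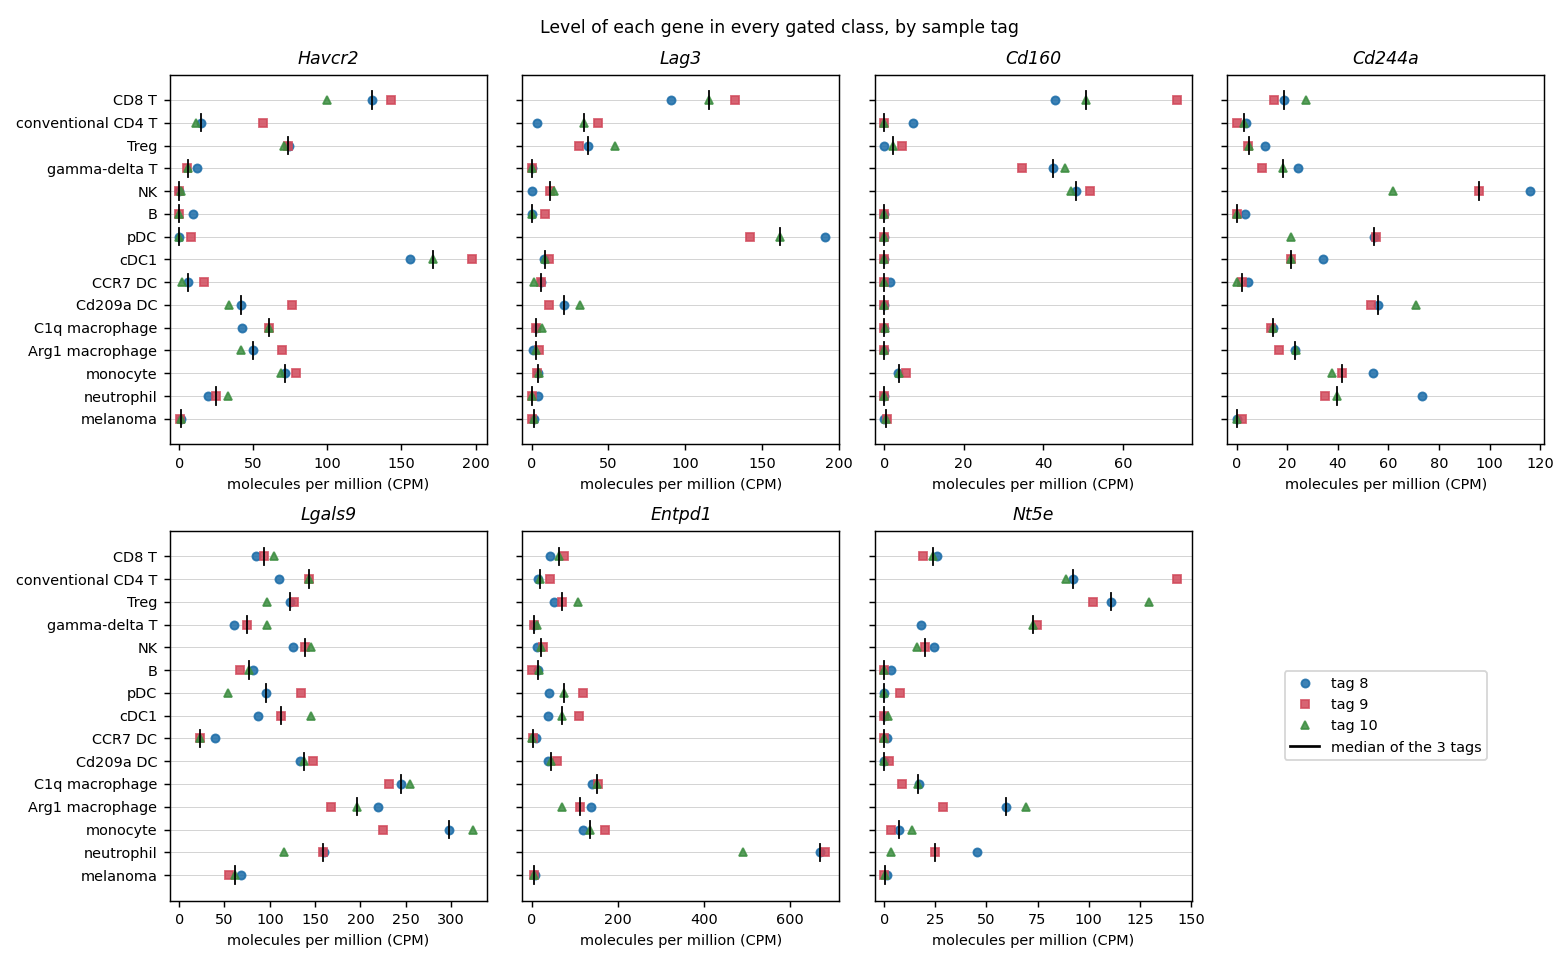
Counts per total molecules (CPM, x axis) of each gene in 15 gated classes (y axis); each point is the sum of 1 sample tag and the bar is the median of the 3 tags. Havcr2 was highest in cDC1 and CD8 T cells, Lag3 in pDC and CD8 T cells, Cd160 in CD8 T, NK and gamma-delta T cells, and Entpd1 in neutrophils.

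Levels are CPM, the molecules of the gene divided by all molecules of the class in 1 tag and scaled to 1000000, given for tags 8, 9 and 10 in that order, and they are compared between classes of 1 gene, not between genes. Class contrasts were tested with edgeR on the sums per class and tag, and a change was called at an adjusted p under 0.05 and at least 2-fold. The tag was a term of the fit, so the p-values rest on how class differences vary over 3 tags of different tumour genotypes. That spread was estimated over all classes in the fit. Intervals in brackets for CPM, ratios and shares are 95% intervals that cover counting error only.

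Havcr2, the TIM-3 gene, stood at 155, 198 and 171 CPM in cDC1, gated on Xcr1 and Clec9a, and at 130.4, 143 and 99.9 CPM in CD8 T cells. Both ranges lay above those of every other class, and the cDC1 range lay above that of CD8 T cells. Regulatory T (Treg) cells, gated on Foxp3, were at 73.9, 73.2 and 70.6 CPM and monocytes at 71.7, 78.8 and 68.5 CPM, and these neighbours overlapped. C1q macrophages (42.7, 60.5 and 60.7 CPM), Arg1 macrophages (49.6, 69.3 and 41.7 CPM) and Cd209a DC (41.5, 76.3 and 33.5 CPM) followed and overlapped too. NK cells and pDC held 1 Havcr2 molecule each, in 364 and 75 cells. A Havcr2 molecule was seen in 61.8% of cDC1 [53.6 to 69.6] and in 33.6% of CD8 T cells [30.1 to 37.3], at median depths of 12145 and 5205 molecules. In B cells, which should lack it, the share was 1.30%, at a median depth of 2252. When each cell was thinned to 1000 molecules the shares were 13.8% in cDC1 and 6.97% in CD8 T cells, against 0.873% in B cells.

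Lag3 was highest in pDC, gated on Siglech, at 191, 142 and 162 CPM, and next in CD8 T cells at 90.8, 132 and 115 CPM. The pDC range lay above that of CD8 T cells, but pDC entered no test, because tag 10 held 19 of the 75 cells, under the minimum of 20 per tag. A molecule was seen in 45.3% of pDC [33.8 to 57.3] and 38.4% of CD8 T cells [34.7 to 42.2], and in thinned cells in 21.6% and 10.5%. Treg cells (36.9, 31.1 and 54.1 CPM) and conventional CD4 T cells (3.69, 43.3 and 34.4 CPM) overlapped, and in the latter tag 8 was far below the others. Gamma-delta T cells, gated on Trdc, had no Lag3 molecule in 194 cells, which allows a level of up to 4.31 CPM and up to 1.55% of cells with a molecule, a limit on cells with a molecule and not on cells that express the gene. C1q and Arg1 macrophages stood at 6.63 CPM or less in every tag. In B cells 0.433% had a molecule.

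Cd160, whose protein is known from NK and cytotoxic T cells, stood at 43.1, 73.7 and 50.9 CPM in CD8 T cells, at 48.3, 51.7 and 47.1 CPM in NK cells and at 42.5, 34.8 and 45.4 CPM in gamma-delta T cells. CD8 T and NK cells overlapped, and which of them had the higher median changed with stricter gates and without tag 9. No class outside these 3 exceeded 7.37 CPM in any tag, and 6 of the 15 classes had no molecule. Among them were cDC1 and Arg1 macrophages, where the limit of 3 counts allows up to 1.60 and 1.25 CPM.

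Cd244a, the 2B4 gene, was highest in NK cells, at 116, 95.7 and 61.8 CPM. It was also found in Cd209a DC (56.1, 53.2 and 70.7 CPM), pDC (54.5, 55.2 and 21.6 CPM), monocytes (54.0, 41.8 and 37.6 CPM) and neutrophils (73.2, 34.8 and 39.8 CPM), each overlapping the next in the order of medians, while neutrophils lay clear of Arg1 macrophages (23.0, 16.9 and 23.6 CPM) below them. CD8 T cells had 18.6, 14.9 and 27.5 CPM. Conventional CD4 T cells, CCR7 DC and B cells had at most 4.36 CPM in any tag. A molecule was seen in 30.5% of NK cells [25.8 to 35.5] and 10.8% of CD8 T cells [8.57 to 13.4], and in thinned cells in 11.02% and 1.93%.

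Lgals9, the galectin-9 gene, was found in every class. Monocytes had 298, 225 and 324 CPM and C1q macrophages 244, 231 and 255 CPM, and their ranges overlapped. Arg1 macrophages followed with 219, 167 and 196 CPM. CCR7 DC were lowest among the 15 classes, with 39.2, 23.4 and 22.8 CPM, below the 55.0 to 68.1 CPM of the cells with melanoma transcripts. In the lymphocytes, medians ran from 74.5 CPM in gamma-delta T cells to 143 CPM in conventional CD4 T cells.

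Of the nucleotidase genes, Entpd1 was highest in neutrophils, gated on Csf3r with S100a8 and S100a9, at 670.2, 681 and 491 CPM, clear of every other class. C1q macrophages (140.3, 154 and 152 CPM), monocytes (120.3, 171 and 136 CPM) and Arg1 macrophages (137, 113 and 70.9 CPM) followed, and the monocyte range overlapped those of both macrophage classes, which did not overlap each other. CCR7 DC (10.2, 2.13 and 1.75 CPM), gamma-delta T cells (6.07, 4.97 and 12.1 CPM) and B cells (15.7, 0 and 17.1 CPM) were at the low end and overlapped. An Entpd1 molecule was seen in 62.4% of neutrophils [57.2 to 67.3] at a median depth of 2259.5 molecules, and in 38.8% of them when thinned, against 13.4% of C1q macrophages when thinned.

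Nt5e, which acts after CD39, had another distribution. Treg cells had 111, 102 and 129 CPM, conventional CD4 T cells 92.1, 143 and 88.8 CPM, gamma-delta T cells 18.2, 74.5 and 72.6 CPM and Arg1 macrophages 59.8, 28.7 and 69.5 CPM. Treg and conventional CD4 T cells overlapped, and the higher of their medians changed when tag 8 or tag 10 was left out. Each of the 4 dendritic classes held 1 Nt5e molecule in all. In neutrophils the level was 45.5, 24.9 and 3.31 CPM, a wide spread over tags. Among the lymphocyte classes, Treg cells had the highest median of both nucleotidase genes, 71.0 CPM for Entpd1 and 111 CPM for Nt5e. For Entpd1 the range of Treg cells (51.2 to 108 CPM) overlapped that of CD8 T cells (43.1 to 75.0 CPM). The medians of neutrophils were 670.2 CPM for Entpd1 and 24.9 CPM for Nt5e.

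**Figure D2:**
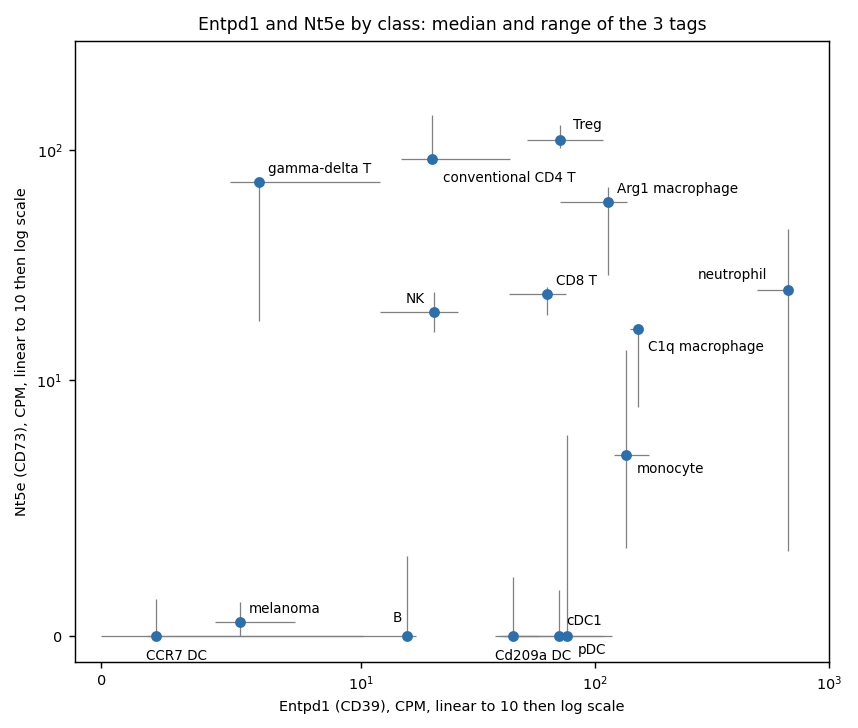
Entpd1 (x axis) against Nt5e (y axis) in CPM, linear to 10 and logarithmic above; each point is the median of the 3 tags of a class and the lines span the lowest to the highest tag. Neutrophils sit far right at 670.2 CPM Entpd1, Treg, conventional CD4 T and gamma-delta T cells sit high on Nt5e, and the dendritic classes lie on the floor of Nt5e.

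CD8 T cells, gated on Cd3 genes with Cd8a or Cd8b1, were compared with conventional CD4 T cells, gated on Cd4 without Foxp3. All 7 genes were tested, and 5 were higher in CD8 T cells and 1 was lower. Over all 9536 genes tested, 5.54% were called higher and 5.51% lower, 11% in all. CD8 T cells were the deeper class, at a median of 5205 against 3094 molecules per cell. In cells thinned to 1000 molecules, 3 members could be tested, 0 were higher and 1 was lower, where 204 of 3256 genes were called. Havcr2, Lag3, Cd160 and Cd244a could not be tested there. In cells thinned to 2000 molecules, 2 of 5 members tested were higher and 1 was lower, where 337 of 5208 genes were called. Havcr2 was higher by 2.17 on the log2 scale (SE 0.32, adjusted p = 3.73e-06) and Lag3 by 2.02 (SE 0.36, adjusted p = 7.68e-05), each higher in 3 of 3 tags with no overlap between the classes. Conventional CD4 T cells held 2 molecules each of Cd160 and Cd244a. The ratio of CD8 T to conventional CD4 T levels was 27.4 for Cd160 [7.54 to 228] and 9.46 for Cd244a [2.56 to 79.1], with adjusted p = 1.25e-05 and 0.00184. Nt5e was lower in CD8 T cells (log2 -2.28, SE 0.35, adjusted p = 9.05e-06), at 25.6, 19.2 and 23.8 CPM. Entpd1 was higher by 1.23 (SE 0.41, adjusted p = 0.0259), with overlapping ranges (43.1, 75.0 and 62.5 against 14.7, 43.3 and 20.1 CPM). That call was lost without tag 9 (adjusted p = 0.0591), without tag 10 (0.187), with stricter gates (0.0833) and in cells thinned to 1000 (0.154) or 2000 molecules (0.0774). Lgals9 differed by -0.49 (adjusted p = 0.0771).

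**Figure D3:**
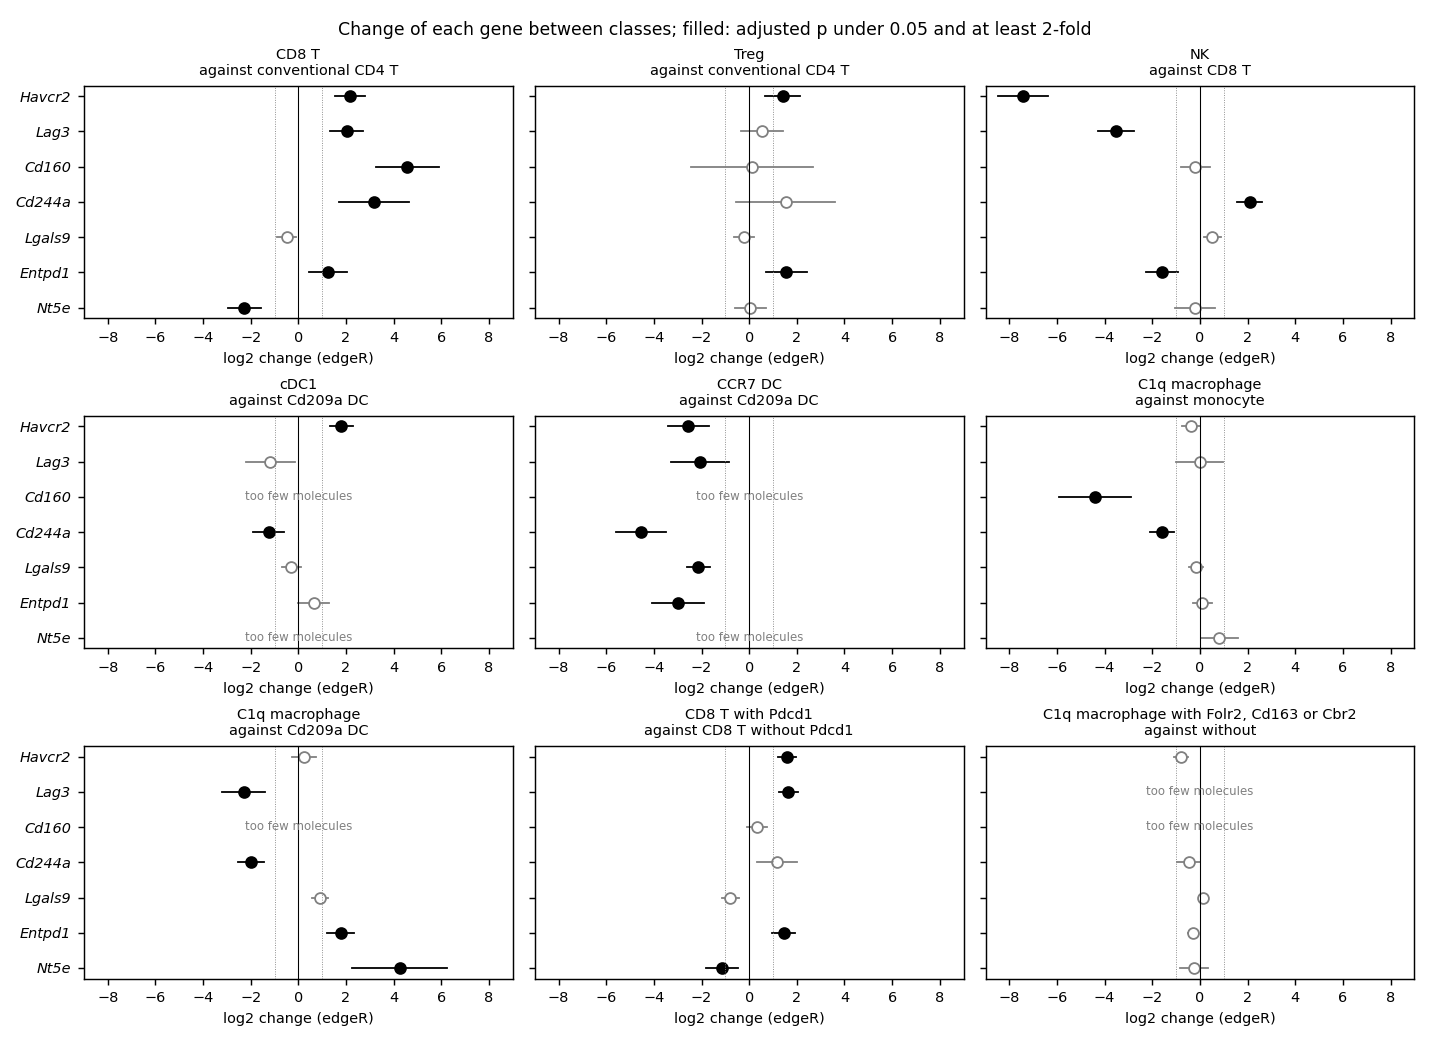
Fitted log2 change (x axis) with its 95% interval for each gene in 9 class comparisons; filled points passed an adjusted p under 0.05 and at least 2-fold (dotted lines), open points did not, and genes with too few molecules for a value are marked. Most filled points lie to the right for CD8 T against conventional CD4 T cells, and all filled points for CCR7 DC lie to the left.

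For the other genes of these pathways, the counts were as follows. Of the 4 LAG-3 ligand genes tested (of 6), 3 were lower in CD8 T cells, the MHC class II genes H2-Aa, H2-Ab1 and H2-Eb1, and the list's median was -1.48 against -0.02 over all genes. H2-Ab1 stood at 130.4, 374 and 190.0 CPM in CD8 T cells and at 391, 690 and 1284 CPM in conventional CD4 T cells. The marker list of CCR7 DC moved with these genes, at 38.4, 252 and 57.9 CPM in CD8 T cells against 239.6, 403 and 155 CPM in conventional CD4 T cells, and its part in the difference was not tested. None of the 5 TIM-3 ligand and adaptor genes was called. Of the 11 ATP and adenosine pathway genes tested (of 14), 2 were lower in CD8 T cells, the ATP receptor genes P2rx7 (log2 -3.30, adjusted p = 9.21e-05) and P2rx4 (log2 -1.66, adjusted p = 0.0344). Btla, which shares the HVEM ligand with CD160, was lower (log2 -1.52, adjusted p = 0.00865). Of the companion receptor list, Pdcd1 (1.403) and the exhaustion-linked factor gene Tox (1.67) were higher, with adjusted p of 1.51e-05 and 0.000189, and Tigit and Ctla4 were not called. Timd4, a TIM family gene, was called lower from 0 against 7 molecules, all 7 in tag 10.

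In Treg against conventional CD4 T cells, 2 of the 7 genes were called, both higher, where 4.79% of 9536 genes were higher and 8.82% were called in all. Havcr2 was higher by 1.41 (SE 0.37, adjusted p = 0.00765), with a narrow range in Treg cells (70.6 to 73.9 CPM) above 11.5 to 56.6 CPM. The call was lost without tag 8 (adjusted p = 0.117), without tag 10 (0.142) and with stricter gates (0.0795). Entpd1, a gene associated with Treg cells, was higher by 1.56 (SE 0.44, adjusted p = 0.0121) at 51.2, 71.0 and 108 CPM, and that call was lost without tag 10 (log2 1.07, adjusted p = 0.273) and in cells thinned to 1000 molecules (log2 1.76, adjusted p = 0.12). Nt5e differed by 0.05, with an interval from -0.61 to 0.72, and Lag3 by 0.53, from -0.35 to 1.42. Among the pathway genes, Ctla4 was higher by 1.74 (adjusted p = 9.27e-07), H2-Aa was higher by 1.18 (adjusted p = 0.0322) beside a CCR7 DC marker list at 546, 375 and 313 CPM in Treg cells, and P2rx7 was lower (log2 -3.45, adjusted p = 0.00334), with 3 molecules in Treg cells. Sh2d1a, the gene of the 2B4 adaptor SAP, was lower at 19.9, 15.5 and 14.1 CPM against 62.7, 63.3 and 51.6 CPM (log2 -1.85, adjusted p = 0.00473).

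NK cells had to be gated again, because the gate of the design left 16 cells in tag 8, under the minimum of 20. The NK gate used here (Ncr1 or Klrb1c, no Cd3 or Trac molecule) was picked among several after the data and the members' values had been seen, and it held 364 cells. Of the 7 genes, 3 were lower in NK than in CD8 T cells and 1 was higher, where 9.52% of 9612 genes were called (4.82% higher, 4.7% lower). Havcr2 had 1 molecule in NK cells, and the level in CD8 T cells was 217 times as high [38.7 to 8566] (adjusted p = 1.84e-14). Lag3 was lower (log2 -3.52, SE 0.39, adjusted p = 3.75e-09), at 0, 12.2 and 14.7 CPM, and Entpd1 was lower too (log2 -1.60, SE 0.35, adjusted p = 0.000687). In cells thinned to 1000 molecules the Entpd1 call was lost (log2 -0.54, adjusted p = 0.516). Cd244a was higher by 2.08 (SE 0.27, adjusted p = 8.11e-08). Cd160 differed by -0.19, with an interval from -0.79 to 0.41. With the gate of the design, 63 cells held no Havcr2 molecule, 3 of Lag3 (12.6 CPM), 7 of Cd160 (29.5 CPM) and 19 of Cd244a (80.0 CPM). Sh2d1b1, which encodes a 2B4 adaptor of NK cells, was higher by 4.82 (adjusted p = 1.51e-08), while the 2B4 ligand gene Cd48 was not called (log2 -0.92). The adenosine deaminase-binding peptidase gene Dpp4 was lower (log2 -3.92, adjusted p = 4.38e-09). In all, 3 of 4 companion receptor genes were lower, with log2 differences of -4.87 for Pdcd1, -2.20 for Ctla4 and -2.02 for Tox.

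Within CD8 T cells, 340 cells with at least 1 molecule of Pdcd1, the PD-1 gene, were set against 335 cells without. Cells with Pdcd1 were also deeper, at a median of 8950.5 against 3786 molecules. Of the 7 genes, 3 were higher in cells with Pdcd1 and 1 was lower, where 4.51% of 6745 genes were higher and 6.39% lower (10.9% in all). Havcr2 stood at 178, 170.2 and 125 CPM against 40.2, 55.2 and 46.4 CPM, higher by 1.59 (SE 0.20, adjusted p = 4.19e-05). Lag3 stood at 116, 158 and 151 CPM against 43.5, 48.1 and 40.6 CPM, higher by 1.64 (SE 0.20, adjusted p = 3.56e-05). Entpd1 was higher by 1.45 (SE 0.25, adjusted p = 0.000609), at 55.3, 91.3 and 76.4 CPM against 20.1, 23.1 and 33.3 CPM. The groups did not overlap for Havcr2, Lag3 and Entpd1, nor for Cd244a, Lgals9 and Nt5e. The share of all genes without overlap was not computed, so the lack of overlap cannot be read as particular to these genes. Nt5e was lower (log2 -1.14, SE 0.34, adjusted p = 0.0202), at 12.5, 15.7 and 19.96 CPM against 50.2, 30.3 and 31.9 CPM, and that call was lost with DESeq2 (adjusted p = 0.146), with stricter gates (0.0766) and without tag 8 (0.0975). Cd160 differed by 0.33, with an interval from -0.10 to 0.76. Cd244a differed by 1.17 (adjusted p = 0.0594) and was called without tag 8 and without the filter on low counts. Lgals9 differed by -0.78, under 2-fold, at an adjusted p of 0.00643, but by 0.22 in cells thinned to 1000 molecules (adjusted p = 0.706). Tox was higher by 1.10 (adjusted p = 0.000324), and none of the 4 LAG-3 ligand, 4 TIM-3 ligand and adaptor or 5 adenosine pathway genes tested was called.

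**Figure D4:**
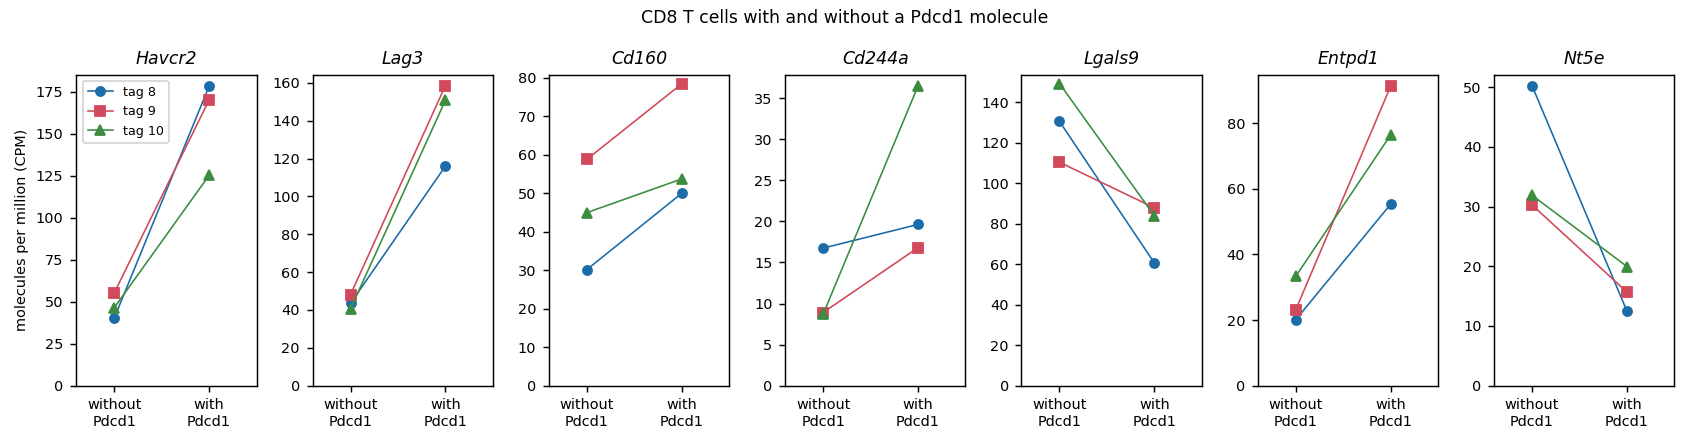
CPM (y axis, starting at 0) of each gene in CD8 T cells without and with a Pdcd1 molecule; each line joins the values of 1 sample tag. Havcr2, Lag3 and Entpd1 lie higher with Pdcd1 in 3 of 3 tags, while Nt5e and Lgals9 lie lower in 3 of 3 tags. Cells were not thinned here, and those with Pdcd1 were deeper.

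The Pdcd1 comparison was repeated at equal depth, since the cells with Pdcd1 were the deeper ones. With the same split but each cell thinned to 1000 molecules, Havcr2 was still higher by 1.36 (adjusted p = 0.0396) and Lag3 by 1.47 (adjusted p = 0.00127). Lgals9 did not stay lower (log2 0.22, adjusted p = 0.706), and Entpd1 was not tested. In a check added after the results were seen, the split was made on 1000 drawn molecules of each cell and the genes were read in its other molecules, in cells of at least 2000 molecules. By tag, this split held 25, 46 and 48 cells with Pdcd1 in the draw and 96, 203 and 225 without. Cells without it in the draw can hold Pdcd1 among their other molecules. Of the 6 members tested, none was called with edgeR, where 16 of 6254 genes were called. Lag3 alone had an unadjusted p under 0.05 (DESeq2 was not run on this split). Havcr2 then differed by 0.05 (SE 0.23, adjusted p = 0.979), Lag3 by 0.59 (SE 0.20, adjusted p = 0.372) and Entpd1 by 0.00 (SE 0.23, adjusted p = 0.999). Pdcd1 itself differed by only 0.88 in those other molecules and Tox by 0.30, both under 2-fold. Pdcd1 status and depth cannot be told apart for these genes.

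Per CD8 T cell, 43.3% showed none of the 4 receptor genes, 23.0% showed 1, and 33.8% showed 2 or more. With Pdcd1, 59.4% showed 2 or more, and without it 7.76%. In cells thinned to 1000 molecules the shares with 2 or more were 2.52% of all CD8 T cells, 4.42% with Pdcd1 and 0.597% without. Treg cells reached 10.5% unthinned, NK cells 7.14%, gamma-delta T cells 2.58% and conventional CD4 T cells 2.0%, at depths that differ between classes. Thinned, these shares were 1.235%, 0.826%, 0% and 0.402% in the same order. Havcr2 and Lag3 were seen together in 23.0% of CD8 T cells [19.8 to 26.3], where the product of their separate shares was 12.9%. In thinned cells these values were 0.890%, from 6 cells, and 0.735%. By tag, the unthinned share of cells with both was 15.2%, 33.5% and 17.1%. The unthinned excess over the product cannot be told apart from the spread of depth between cells.

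**Figure D5:**
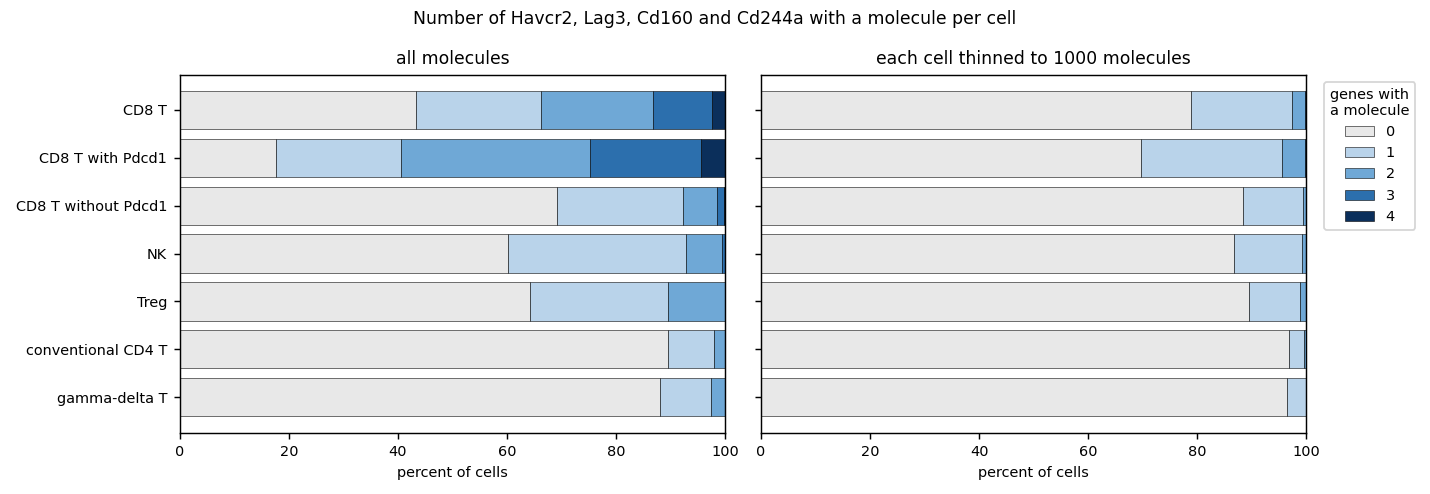
Percent of cells (x axis) by how many of Havcr2, Lag3, Cd160 and Cd244a showed a molecule, in lymphocyte classes (y axis), with all molecules at left and 1000 molecules per cell at right. CD8 T cells with Pdcd1 hold the most cells with several receptor genes at left, and nearly all such cells are gone at right.

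Among dendritic cells, cDC1 were compared with Cd209a DC, a class that also had a high level of the monocyte marker list (2195 to 2833 CPM, against 1034 to 1195 CPM in cDC1). The neutrophil marker list stood at 1037 to 1371 CPM in Cd209a DC, against 103 to 275 CPM in cDC1. It was at 179 to 388 CPM in CCR7 DC and 68.9 to 120 CPM in C1q macrophages, which are compared with Cd209a DC below. The part of neutrophil transcripts in these 3 comparisons was not tested. Of the 7 genes, 1 was higher and 1 lower in cDC1, where 5.09% of 9536 genes were higher and 6.28% lower (11.4% in all). Havcr2 was higher by 1.81 (SE 0.26, adjusted p = 9.04e-07), in 3 of 3 tags and with no overlap. Cd244a was lower (log2 -1.25, SE 0.33, adjusted p = 0.00498), at 34.0, 21.3 and 21.6 CPM, and that call was lost without tag 10 (log2 -1.01, adjusted p = 0.118). Lag3 was at 8.10, 11.4 and 8.999 CPM against 20.8, 11.6 and 31.7 CPM (log2 -1.18, adjusted p = 0.129). Of the pathway lists, the single gene tested of the other TIM family, Timd4, was higher in cDC1 by 1.84 (adjusted p = 0.0117), and Btla was higher by 2.92 (adjusted p = 1.05e-08). The TIM-3 ligand gene Ceacam1 was lower (log2 -3.78, adjusted p = 0.00272). The adenosine receptor genes Adora2a (log2 -2.33, adjusted p = 0.00157) and Adora2b (log2 -3.50, adjusted p = 3.4e-08) were lower in cDC1, and with Enpp1 they were the 3 of 11 pathway genes called.

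CCR7 DC, gated on Ccr7 and Fscn1 and known as mature or migratory DC, were low in nearly the whole set. Of the 7 genes, 5 were lower than in Cd209a DC and none was higher, where 10.9% of 9536 genes were lower, 12.4% higher and 23.3% called in all. Havcr2 stood at 5.81, 17.0 and 1.75 CPM, lower (log2 -2.55, SE 0.43, adjusted p = 9.51e-06). Cd244a stood at 4.36, 2.13 and 0 CPM, lower (log2 -4.55, SE 0.53, adjusted p = 6.12e-09). Entpd1 was lower (log2 -2.997, SE 0.56, adjusted p = 4.34e-05) and so was Lgals9 (log2 -2.13, SE 0.25, adjusted p = 4.12e-09), the only call Lgals9 received in 9 comparisons. In cells thinned to 1000 molecules the Entpd1 call was lost (log2 -1.98, adjusted p = 0.157). Lag3 was lower (log2 -2.06, SE 0.62, adjusted p = 0.00935), from 8 against 32 molecules, and that call was lost without tag 10 (adjusted p = 0.281). Cd160 and Nt5e had at most 1 molecule in either class. The ligand gene of 2B4, Cd48, was lower as well (52.3, 78.8 and 35.1 against 208, 169 and 242 CPM, log2 -1.81, adjusted p = 4.87e-07), as was the LAG-3 ligand gene Lgals3 (log2 -1.93, adjusted p = 4.63e-10). Adora2a went the other way, at 157, 126 and 170.2 CPM against 14.5, 37.0 and 22.3 CPM (log2 2.77, adjusted p = 9.18e-10), and Adora2b was lower (log2 -1.98, adjusted p = 2.17e-05).

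C1q macrophages were compared with monocytes, gated on Ly6c2 and Chil3. The monocyte class held NK and T cell transcripts, with 292 to 429 CPM of the NK list (11.5 to 34.7 CPM in C1q macrophages) and 46.9 to 58.6 CPM of the T cell list (5.50 to 7.45 CPM). Of the 7 genes, 2 were lower in C1q macrophages and none was higher, where 4.03% of 9536 genes were lower, 3.94% higher and 7.97% called in all. Cd244a stood at 14.6, 13.6 and 14.5 CPM against 54.0, 41.8 and 37.6 CPM, lower (log2 -1.60, SE 0.25, adjusted p = 5.82e-06). Cd160 had 1 molecule in C1q macrophages and 18 in monocytes, a ratio of 51.8 [8.19 to 2160.1] (adjusted p = 9.54e-05). A narrower monocyte gate, added after the results were seen, asked for a molecule of Csf1r, Cd68 or Adgre1. It also allowed no molecule of Ncr1, Klrb1c, Gzma, Eomes, Trac, Trbc1 or Trbc2, and it held 153, 212 and 219 cells by tag. With this gate Cd160 was no longer called (log2 0.81, adjusted p = 0.756) and Cd244a was still lower (log2 -1.58, adjusted p = 8.89e-05). Nt5e was called higher in C1q macrophages (log2 1.40, adjusted p = 0.0497). The parts of the gate were not tested apart. Havcr2 differed by -0.38 (interval -0.77 to 0.02) with all monocytes and by -0.66 (adjusted p = 0.0272, under 2-fold) with that gate. With all monocytes, Lgals9 differed by -0.18 (interval -0.47 to 0.12) and Entpd1 by 0.11 (interval -0.31 to 0.52). Of the adenosine pathway genes, Enpp1, which degrades ATP, was higher in C1q macrophages by 2.13 (adjusted p = 4.24e-05) and the nucleoside transporter gene Slc29a1 by 1.24 (adjusted p = 0.000168), 2 of 11 tested. The T cell kinase gene Lck was lower (3.12, 2.89 and 3.11 against 30.1, 27.4 and 31.5 CPM), as were Fyn, Sh2d1a, Tigit and Ctla4. The part of NK and T cell transcripts in these lower values was not tested.

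Against Cd209a DC, C1q macrophages had 2 of the 7 genes higher and 2 lower, where 10.9% of 9536 genes were higher and 7.2% lower (18.1% in all). Entpd1 was higher by 1.78 (SE 0.29, adjusted p = 3.38e-06). Nt5e was higher at 16.9, 8.97 and 16.8 CPM, against 1 molecule in Cd209a DC, a ratio of 21.2 [3.75 to 841] (adjusted p = 0.00115). Lag3 was lower (log2 -2.30, SE 0.45, adjusted p = 0.0001) and so was Cd244a (log2 -1.98, SE 0.28, adjusted p = 3.56e-07). Lgals9 was higher in 3 of 3 tags by 0.89 (adjusted p = 7.59e-05), under 2-fold, and Havcr2 differed by 0.25 (interval -0.25 to 0.75). Of the 11 adenosine pathway genes tested, 4 were higher in C1q macrophages, Enpp1, P2rx7 (log2 3.58), P2rx4 (log2 1.34) and P2ry2 (log2 2.38), and Dpp4 was lower (log2 -4.09). Of the LAG-3 ligand genes, the class II genes H2-Aa, H2-Ab1 and H2-Eb1 were lower, H2-Ab1 by a log2 difference of -1.66 (adjusted p = 0.000527), and Lgals3 was higher by 1.20 (adjusted p = 2.24e-06).

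Within C1q macrophages, 586 cells with Folr2, Cd163 or Cbr2, genes of resident-type macrophages, were set against 679 cells without, at median depths of 10653 and 6851 molecules. None of the 5 members tested was called with edgeR or DESeq2, where 2.23% of 8688 genes were called with edgeR (1.16% higher, 1.07% lower), and Havcr2 and Entpd1 had an unadjusted p under 0.05. Havcr2 stood at 33.0, 41.1 and 51.1 CPM against 62.4, 74.7 and 75.3 CPM, with no overlap, lower (log2 -0.79, SE 0.15, adjusted p = 0.00744) but by less than 2-fold. In thinned cells it was called (log2 -1.23, adjusted p = 0.0214). Entpd1 differed by -0.31 (adjusted p = 0.102) and Lgals9 by 0.13 (adjusted p = 0.492). The MHC class II genes among the LAG-3 ligands were lower in cells with these markers, H2-Ab1 at 1967, 2707 and 2385 CPM against 4577, 5952 and 6369 CPM (log2 -1.29, adjusted p = 2.49e-06), and Ceacam1 was higher by 1.57 (adjusted p = 0.000829).

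Over 45 sums of 15 classes and 3 tags, the likeness of patterns was read as Pearson's r of log2(CPM + 10) among 9920 genes, a description over sums that share their library and differ in depth. Cd160 was most like Klrc1 (0.92), Xcl1 (0.91) and Eomes (0.90), and Entpd1 most like Mapkapk2 (0.87), Ccl3 (0.83) and Prdx5 (0.83). Cd244a was most like Itgax (0.80), Tyrobp (0.73) and Rap1gap2 (0.72), and Lag3 most like Cd8b1 (0.79), a gate gene, Rps6ka1 (0.77) and Pacsin1 (0.77). For Nt5e these were Slc39a4 (0.79), Odc1 (0.78) and Cd28 (0.77), for Havcr2 2310031A07Rik (0.77), Rbpj (0.75) and Actr3 (0.74), and for Lgals9 Itgb2 (0.77), Rnpep (0.76) and Xdh (0.75). Between members, r was highest for Lgals9 with Entpd1 (0.68). It was 0.18 for Havcr2 with Lag3 and 0.17 for Entpd1 with Nt5e.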

How the data were processed

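Single-cell whole transcriptome counts and sample tag calls of 1 capture were used. The deposited values are molecule counts per cell and gene, corrected by version 1.9.1 of BD's pipeline for whole transcriptome Rhapsody libraries with GRCm38 and GENCODE vM19, per the file headers, while the submitters' processing notes name GRCm39. The authors' tag calls were used as deposited: 1448 multiplets and 361 undetermined cells were left out, as were cells meeting more than 1 gate, but doublets within a tag remain. Of 24510 genes, 745 had no molecule.

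Molecules were summed per class and tag and fitted with edgeR 4.0.16 (TMM, filterByExpr, quasi-likelihood test) with class and tag as terms, over 13 classes with at least 20 cells in each tag. Both splits were fitted on their own. The NK comparison came from another fit, with the NK cells of the gate used here added to those classes. P-values were adjusted by Benjamini-Hochberg over all genes tested. DESeq2 1.42.0 ran beside it in R 4.3.3, and sums, levels and intervals came from scipy 1.17.1 and pandas 2.3.3 under Python 3.11.15. The fit was tested on simulated data for CD8 T against conventional CD4 T cells only. Changes were set there in genes with several molecules expected per sum, so genes with hardly any molecules in a class were not covered. The labels do not say that mice were tagged apart, so each tag is 1 pool. Alternatives were DESeq2, other size factors, gates, cell filters and count filters, thinning, the fit without the tag, and leaving out each tag.

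The members, lists and gates were chosen with earlier results of these data known. All 7 members are named, with pathway genes from the lists and, for each member, the 3 genes of highest r among genes with at least 200 molecules. The NK gate, the thinning to 2000 molecules, the narrower monocyte gate and the Pdcd1 split read in other molecules were chosen after seeing the data. That monocyte gate asked for Csf1r, Cd68 or Adgre1 and for no molecule of the listed NK and T cell genes. The NK gate was picked among several with the members' values in view.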

Additional observations from a re-analysis of the deposited data

Results flagged for a closer look

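Cells whose sample tag was undetermined entered no comparison. Of them, 175 passed the cell filters, with 3969042 molecules, and 5 of the 7 genes were above the limit of 3 counts there. Lgals9 stood at 65.0 CPM (258 molecules), Entpd1 at 2.02 CPM (8 molecules), Havcr2 at 1.76 CPM (7 molecules), and Lag3 and Nt5e at 1.01 CPM each (4 molecules each).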

How the results depend on the processing

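Of 29 called member differences, 17 held in every alternative in which they were tested and 19 in all but thinning. Without the alternatives added after seeing the data, these were 21 and 23. The alternative without a minimum fold could not lose a call, and the share of all called genes that held was not computed. With each cell thinned to 1000 molecules, 3 or 4 of the 7 members could be tested, and the members called fell to 1 for CD8 T against conventional CD4 T cells, 0 for Treg cells, 1 for NK cells, 0 for cDC1, 1 for CCR7 DC, 0 for C1q macrophages against monocytes, 2 for C1q macrophages against Cd209a DC and 2 for the Pdcd1 split, and became 1 for the Folr2, Cd163 or Cbr2 split; fewer genes tested is part of that setting. Of 3256 genes tested at that setting, 204 were called for CD8 T, 195 for Treg cells, 294 for cDC1 and 737 for CCR7 DC. For C1q macrophages, 266 were called against monocytes and 677 against Cd209a DC. For NK cells it was 350 of 3670, for the Pdcd1 split 179 of 2291 and for the Folr2, Cd163 or Cbr2 split 92 of 3501. The share of CD8 T cells with both Havcr2 and Lag3 went from 23.0% to 0.890%. Thinning to 2000 molecules, added after seeing the data, left 3 calls for CD8 T cells, where 337 of 5208 genes were called. Stricter gates left 1 for Treg cells, where 548 of 8913 genes were called. A fit of only the classes compared left 1 for C1q macrophages against monocytes (783 of 9207 genes), and Cd160 was not tested there. Without a minimum fold the Folr2, Cd163 or Cbr2 split had 1 (642 of 8688 genes). Leaving out 1 tag gave 0 to 2 calls for Treg cells and 1 to 2 for cDC1. Over all genes, 430 to 688 were called there for Treg cells and 782 to 916 for cDC1, of 9451 to 9785 tested. In the alternatives added after seeing the data, the Pdcd1 split read in other molecules had 0 calls, where 16 of 6254 genes were called. Entpd1 stood there at log2 -0.0012, and Cd160 in C1q macrophages against monocytes was at 0.81. The cause was not tested. The tag is the block of the fit. Without that block 6 members were called for CD8 T cells, 2 for Treg cells and 4 for NK cells, and no count of members changed. Over all genes, 1024 and 799 of 9536 were then called for CD8 T and Treg cells, and 881 of 9612 for NK cells.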
